A study of Homo sapiens with 3 samples.

Results

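The 46 ATP-binding cassette (ABC) transporter genes of the array were compared between NCI-H1975 (H1975), a human non-small cell lung cancer line that carries mutated EGFR and is labelled osimertinib sensitive, and its osimertinib-resistant derivatives OR1 and OR2. They were chosen by symbol, as non-control probes whose gene name was ABC, a letter from A to G and a number, and made up 46 of 43316 genes and 71 oligonucleotide probes. Both derivatives came from H1975 under osimertinib, an EGFR kinase inhibitor, raised in steps to at most 2 μmol/L over 4 months. Each line was measured on 1 single-colour array, all on the same slide, and no line had a replicate culture. Every difference given here is therefore a ratio of 1 array to 1 array, with no test and no p-value.

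ABC proteins share an ATP-binding domain, and most use ATP hydrolysis to carry a substrate across a membrane. Some export drugs or their conjugates from the cell, among them P-glycoprotein (ABCB1), the multidrug resistance-associated proteins of the C branch and the breast cancer resistance protein (ABCG2). Others move sterols and phospholipids, act in mitochondria, peroxisomes or lysosomes, or have no membrane domain and take part in translation. The drug efflux members, ABCB1, ABCC1 to ABCC5 and ABCG2, were set against the other 39.

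No drug efflux member reached a ratio of 2 in either derivative, and 1 of the 6 that were measured, ABCC3, was at or below 0.5 in both OR1 and OR2. Near the limits this depended on the scaling, since ABCG2 was also at 0.5 or less in OR1 under quantile, median, spike-in or no scaling and in the authors' normalized table, and ABCC4 passed 2 in OR2 under spike-in or no scaling. The members at 2 or more lay among the others. They were ABCA3, ABCA5 and ABCC6 in OR1, and these and ABCA2 in OR2. Over all genes with a ratio, 9.17% were at 2 or more and 9.58% at 0.5 or less in OR1, and 7.72% and 8.7% in OR2. ABCB1 was not measured above background in any line. A probe was called measured where the scanner software marked it as well above background, and the ratio limits of 2 and 0.5 are those of the study's methods. Where a probe was measured in one line only, the ratio was taken against the lowest measured intensity of the other array and is given as a bound, "at least" or "at most".

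Of the 46 members, 25 were measured in every line and 28 (60.9%) in 1 line or more, against 51.8% of all genes. ABCG2, ABCA5 and ABCA10 were measured on some arrays only, and 18 members on none. Those on none included ABCB1, the bile salt export pump ABCB11, both sulfonylurea receptors ABCC8 and ABCC9, and 9 of the 17 sterol and lipid members. All 4 mitochondrial members and all 4 members with no membrane domain were measured in every line. The members not measured had intensities of 2.60 to 14.2 in H1975, 2.39 to 6.81 in OR1 and 2.62 to 7.67 in OR2. The dimmest measured probe read 12.6 in the parent, then 11.4 in OR1 and 12.6 in OR2. Intensities are printed as the scanner software gave them, and ratios were formed after each array was scaled on its 75th percentile.

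Markers were checked against the labelled cell type. Of 9 epithelial markers, 8 were measured in each line and the surfactant gene SFTPB in none. KRT8 stood at 1.12 times H1975 in OR1 and 0.96 times in OR2, while CDH1 (E-cadherin) stood at 0.02 and 0.08 and EPCAM at 0.04 and 0.07. In all, 5 of the 8 were at 0.5 or less in OR1 and 4 in OR2. The lung markers NKX2-1 (0.25 in OR1, 1.36 in OR2) and NAPSA (0.77, 1.57) stood above H1975 in OR2. Of the markers of other cell types, 2, 3 and 1 of 6 fibroblast genes were measured in H1975, OR1 and OR2, with 3 of 4 immune genes (CD3E not) and 2 of 3 endothelial genes (KDR not) in every line. The geometric mean intensity of the epithelial list was 3728 for H1975, 924 for OR1 and 1893 for OR2. For the fibroblast list it was 14.0, 18.8 and 5.81, and for the immune list 46.8, 64.6 and 80.1. The endothelial list stood at 15.4, 15.5 and 17.6. Whether these shifts bear on any ABC gene was not tested. In RNA from a culture, fewer cells with a transcript and less transcript per cell cannot be told apart.

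P-glycoprotein, the drug pump encoded by ABCB1 on chromosome 7, is the classical efflux transporter of drug-selected cells. Its brighter probe read 4.79 (H1975), 3.05 (OR1) and 3.29 (OR2), and the other probe 2.58, 2.38 and 2.61. Neither was well above background on any array, so no ratio was formed, and all the values lay below the lowest measured intensity of their array.

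ABCG2 exports many kinase inhibitors and urate, and its single probe (hg19 chromosome 4, 89011503 to 89011562) gave the largest ratio between the 2 derivatives among the members. The intensity was 25.7 in H1975, 10.9 in OR1, where it was not well above background, and 44.7 in OR2. OR2 was the highest and OR1 the lowest of the 3 lines. The ratio to H1975 was at most 0.51 in OR1 and 1.69 in OR2, so OR2 did not reach 2, and the bound in OR1 lay just above 0.5. Its log2 bound in OR1 was -0.99, against -1.07 with quantile normalization or the authors' normalized table, -1.09 with median scaling and -1.17 with no scaling, all past the limit. Normexp background correction with an offset of 50 by construction draws ratios of dim probes toward 1. After it, the log2 ratio was at most -0.12 in OR1 and was 0.29 in OR2. OR2 was at least 3.35-fold higher than OR1. This was the 1 member past a ratio of 2 between the derivatives (1 of 28, against 2.48% of all genes), and no member was at or below 0.5, where 2.89% of all genes lay. The spot error of the scanner software gave a technical SD of 0.28 on the log2 ratio of OR2 to H1975, a larger error than for most members.

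ABCC3 carries organic anions and glucuronide conjugates out of epithelial cells and was, by its brighter probe, the furthest below H1975 of the measured members. Its brighter probe (hg19 chromosome 17, 48768701 to 48768760) read 2068 in the parent, then 447 in OR1 and 740 in OR2. H1975 was the highest, and the ratio was 0.25 in OR1 (log2 ratio -2.02, technical SD 0.20) and 0.35 in OR2 (-1.52, SD 0.20). A second probe, drawn from another transcript (accession NM_001144070) and 48745220 to 48745279 on the same chromosome, read 328 for H1975, 235 for OR1 and 303 for OR2. Its log2 ratio was -0.29 in OR1 and -0.16 in OR2, so both probes were below H1975 but differed in size. With the median over its probes, the log2 ratio of ABCC3 was -1.16 in OR1 and -0.84 in OR2, short of the limit in OR2. Of the measured genes other than ABC members within 500 kb of ABCC3, 24 of 25 were below H1975 in OR1, with a median log2 ratio of -0.43, and 22 of 26 in OR2, with a median of -0.56.

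ABCC4 transports cyclic nucleotides and prostaglandins as well as drugs. Its intensity was 36.7 (H1975), 46.8 (OR1) and 74.2 (OR2). The ratio was 1.45 in OR1 (log2 ratio 0.54, SD 0.26) and 1.97 in OR2 (0.98, SD 0.25), which made it the closest measured member below the limit of 2 in OR2. Its log2 ratio in OR2 was 1.05 with spike-in scaling and 1.02 with no scaling, above the limit, and 0.40 after normexp.

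ABCC2, the canalicular exporter of conjugates, read 67.1 in the parent, then 84.1 in OR1 and 104 in OR2, for ratios of 1.43 and 1.51. ABCC1, which exports glutathione conjugates and leukotrienes, read 300 for H1975, 366 for OR1 and 384 for OR2, for ratios of 1.39 and 1.24. Both genes were above H1975 in each derivative, by less than the limit of 2, though with spike-in scaling their log2 ratios in OR1 were -0.12 for ABCC1 and -0.08 for ABCC2. ABCC5, an exporter of nucleotide analogues, read 1354 (H1975), 887 (OR1) and 1293 (OR2), for ratios of 0.75 and 0.93. Its other 2 probes gave log2 ratios of 0.25 and 0.16 in OR1 and of 0.35 and 0.16 in OR2, opposite in sign to the brightest probe, so the direction of ABCC5 depended on the probe.

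**Figure D1:**
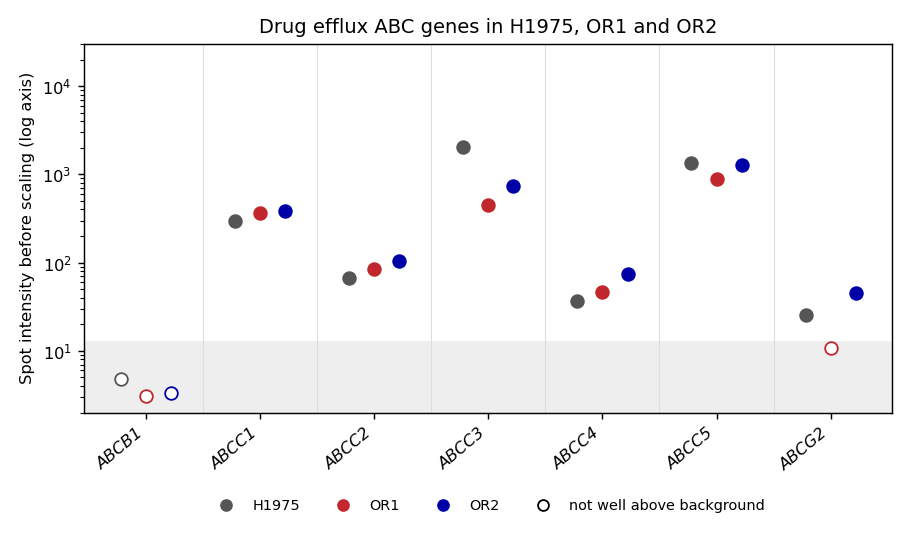
Spot intensity of the 7 drug efflux genes (brightest probe, log axis, before scaling) on the 1 array of each line, with open circles where the probe was not well above background and grey shading below the lowest measured intensity. ABCB1 lies in the shading in all 3 lines and ABCG2 in OR1 only, and ABCC3 is highest in H1975, at 2068, against 447 in OR1 and 740 in OR2.

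ABCA3 moves phospholipid into the lamellar bodies of the lung's type II alveolar cells, where surfactant is stored. Its probe (hg19 chromosome 16, 2326263 to 2326322) read 434 in the parent, then 1363 in OR1 and 1543 in OR2. Both derivatives were above H1975 and close to each other, with ratios of 3.58 in OR1 (log2 ratio 1.84, SD 0.20) and 3.46 in OR2 (1.79, SD 0.20). OR2 over OR1 was 0.97. Over the 66 measured genes within 500 kb, the median log2 ratio was 0.01 for OR1 and -0.10 for OR2.

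ABCA5, a lysosomal and endosomal member linked to cholesterol handling, was measured in the derivatives only. Its probe (hg19 chromosome 17, 67243530 to 67243589) read 3.98 in H1975, where it did not clear the background, 60.01 in OR1 and 54.1 in OR2. OR1 was at least 5.45-fold higher than H1975 and OR2 at least 4.19-fold higher. After normexp the bounds were log2 ratios of at least 0.78 and at least 0.55, which do not show whether the limit was passed. ABCA5 belongs to a run of 5 related genes on chromosome 17, the others being ABCA8, ABCA9, ABCA6 and ABCA10. ABCA8 and ABCA6 were not measured in any line. ABCA9 read 12261 for H1975, 12609 for OR1 and 15184 for OR2, for ratios of 1.17 and 1.21. These were the highest intensities of any member and came from 1 probe, and which transcript it read was not tested. ABCA10, with 10.3 (H1975), 9.95 (OR1) and 14.3 (OR2), was measured only in OR2, at least 1.11-fold higher than H1975. The measured genes other than ABC members within 500 kb of ABCA5 were all above H1975, 2 of 2 in OR1, with a median log2 ratio of 1.29, and 3 of 3 in OR2, with a median of 0.43.

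ABCC6, whose loss in inherited disease leads to calcification of elastic tissue, had, by its brightest probe, the largest plain ratio of the members in OR2. The brightest of its 4 probes (hg19 chromosome 16, 16315075 to 16315134) read 75.01 in the parent, then 209 in OR1 and 373 in OR2. The order was H1975, OR1, OR2, with ratios of 3.17 in OR1 (log2 ratio 1.67, SD 0.21) and 4.84 in OR2 (2.28, SD 0.21). This probe and 2 others within the same stretch were drawn from accession NM_001079528, and the others gave log2 ratios of 1.37 and 1.25 in OR1 and 2.08 and 1.40 in OR2. The remaining probe, drawn from NM_001171 at 16243855 to 16243914, read 4.70 in H1975 and 7.22 in OR1, neither well above background, and 24.1 in OR2, a log2 ratio of at least 0.90. The 4 probes thus placed OR2 above H1975, and OR1 was placed by the 3 clustered probes alone. Whether the transcript of the remaining probe changed by as much as 3.17 and 4.84 could not be told, because that probe was measured in OR2 only. The array's probe for the pseudogene ABCC6P1, a near copy of part of the gene, was not well above background in any line. Cross-hybridization with such copies was not tested.

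ABCA2, a lipid transporter of the nervous system and of lysosomes, read 69.3 for H1975, 81.8 for OR1 and 164 for OR2. The ratio was 1.35 in OR1 (log2 ratio 0.43, SD 0.22) and 2.31 in OR2 (1.21, SD 0.22), and OR2 was 1.71 times OR1. After normexp the value in OR2 was 0.75, under the limit. A second ABCA2 probe read 11.1 for H1975, 6.71 for OR1 and 2.76 for OR2. It was not well above background in any line, so the ratios of ABCA2 rest on 1 probe. ABCA1, which hands cholesterol to apolipoproteins, read 350 (H1975), 282 (OR1) and 656 (OR2). That is 0.92 times H1975 for OR1 and 1.83 times for OR2, with OR2 1.99 times OR1, just under the limit. A second ABCA1 probe gave log2 ratios of -0.10 and -0.04, so the higher level in OR2 was seen with 1 of 2 probes.

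The promoter windows of ABCA3, ABCA5 and ABCC6, the members past a ratio of 2 in OR1, are printed to show the sequence from which these transcripts start. Each is the RefSeq window on GRCh38.p14, from 250 bases before to 50 after the annotated start, read 5′ to 3′ on the gene's strand. ABCA3 is chr16:2340679-2340978, minus strand, ABCA5 is chr17:69327084-69327383, minus strand, and ABCC6 is chr16:16223445-16223744, minus strand, the first of 2 windows. Capitals mark matches on either strand to any of 6 short motifs.
ABCA3: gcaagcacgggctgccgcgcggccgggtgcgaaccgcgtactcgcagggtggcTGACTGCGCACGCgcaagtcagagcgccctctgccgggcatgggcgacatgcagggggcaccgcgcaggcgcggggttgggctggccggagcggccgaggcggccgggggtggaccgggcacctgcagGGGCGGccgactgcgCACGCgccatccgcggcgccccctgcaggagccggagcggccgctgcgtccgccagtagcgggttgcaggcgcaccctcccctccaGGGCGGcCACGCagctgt
ABCA5: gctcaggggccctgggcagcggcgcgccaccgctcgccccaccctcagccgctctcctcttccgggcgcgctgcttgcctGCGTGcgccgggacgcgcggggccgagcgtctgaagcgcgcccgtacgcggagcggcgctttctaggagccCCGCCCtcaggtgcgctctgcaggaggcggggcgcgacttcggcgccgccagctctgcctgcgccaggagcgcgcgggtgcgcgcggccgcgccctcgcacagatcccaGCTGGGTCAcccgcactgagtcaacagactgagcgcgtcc
ABCC6: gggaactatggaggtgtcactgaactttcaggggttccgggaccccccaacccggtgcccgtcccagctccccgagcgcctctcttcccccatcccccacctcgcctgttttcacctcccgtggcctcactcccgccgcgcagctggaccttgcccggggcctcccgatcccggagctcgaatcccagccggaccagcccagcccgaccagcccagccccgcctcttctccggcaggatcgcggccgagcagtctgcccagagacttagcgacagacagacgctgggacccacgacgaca
The motifs searched were the GC box GGGCGG, the CCAAT box itself, the TATA box TATAAA, the E-box CACGTG, the core GCGTG bound by the aryl hydrocarbon receptor, and the core TGACNNNGC of the antioxidant response element. Hits of different motifs may overlap, as 1 pair did in ABCA3. ABCA3 held 2 GC boxes, 3 copies of GCGTG and 1 antioxidant core. ABCA5 held 1 of each of these, and the ABCC6 window held none of the 6. With 1 window a gene, the GC box was in 44.6% of 27305 windows and in 51.4% of the 35 held for members, and the CCAAT box in 35.7% and 17.1%. The TATA box was in 12% and 14.3%, and the E-box in 7.43% and 11.4%. The aryl hydrocarbon receptor core was in 36.3% and 37.1%, and the antioxidant core in 13.6% and 20.0%. A match describes letters only, and no binding was measured.

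Among the mitochondrial members, ABCB8 stood below H1975. ABCB8, a transporter of the inner membrane, read 486 in the parent, then 200 in OR1 and 273 in OR2 with its brighter probe (hg19 chromosome 7, 150744762 to 150744821). The ratio was 0.47 in OR1 (log2 ratio -1.09, SD 0.21) and 0.55 in OR2 (-0.87, SD 0.21), so it passed the limit of 0.5 in OR1 only. The second probe gave log2 ratios of 0.11 and -0.60, and the value in OR1 thus rested on 1 of 2 probes. ABCB10, needed for heme synthesis, had ratios of 1.23 and 1.20. ABCB6, a porphyrin transporter, had 1.46 in OR1 and 1.01 in OR2.

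ABCF2 lies 167 kb from ABCB8 on chromosome 7 and was also below H1975. It has no membrane domain and belongs to a branch tied to ribosomes. It read 2746 for H1975, 1325 for OR1 and 1820 for OR2, for ratios of 0.55 and 0.64, short of the limit. Within 500 kb of ABCB8, 16 of 19 measured genes other than ABC members were below H1975 in OR1, with a median log2 ratio of -0.77. In OR2 the count was 15 of 18 and the median -0.46. Whether the neighbourhood bears on either gene was not tested. The promoter windows of both genes are shown because the genes are neighbours with values on the same side of H1975. ABCB8 is chr7:151028200-151028499, plus strand, and ABCF2 is chr7:151227156-151227455, minus strand, on GRCh38.p14, with the same motifs in capitals.
ABCB8: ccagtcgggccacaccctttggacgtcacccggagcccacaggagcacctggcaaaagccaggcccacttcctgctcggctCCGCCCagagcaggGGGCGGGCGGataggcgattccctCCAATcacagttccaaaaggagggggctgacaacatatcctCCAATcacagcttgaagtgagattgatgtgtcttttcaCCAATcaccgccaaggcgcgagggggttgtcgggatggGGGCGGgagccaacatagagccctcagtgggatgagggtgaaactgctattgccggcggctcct
ABCF2: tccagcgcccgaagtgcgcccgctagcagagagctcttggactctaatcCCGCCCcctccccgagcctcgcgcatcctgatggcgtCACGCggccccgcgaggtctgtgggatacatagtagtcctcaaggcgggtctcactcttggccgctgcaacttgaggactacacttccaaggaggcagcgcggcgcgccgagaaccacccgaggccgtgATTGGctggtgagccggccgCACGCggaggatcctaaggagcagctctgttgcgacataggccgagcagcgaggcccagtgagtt
ABCB8 held 4 GC boxes and 3 CCAAT boxes, and ABCF2 held 1 of each and 2 copies of GCGTG. The GC boxes of ABCB8 include overlapping copies.

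The other members without a membrane domain had ratios between 0.93 and 1.42. ABCE1, which recycles ribosomes, had ratios of 1.33 in OR1 and 1.17 in OR2. ABCF1, an initiation factor partner, had 1.42 and 1.22, and ABCF3 1.11 and 0.93. In the peroxisomal and lysosomal group, ABCD3 had ratios of 1.54 and 1.21, and ABCD4, which works in lysosomal cobalamin export, had 1.0 and 0.92. ABCD2 was not measured. ABCB9, a lysosomal peptide transporter, had 1.36 and 1.54, and its second probe gave log2 ratios of -0.20 and 0.08.

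ABCC10, an exporter of lipophilic drugs outside the efflux list, was above H1975 with each of its 3 probes. Its brightest probe read 242 (H1975), 396 (OR1) and 403 (OR2), for ratios of 1.87 and 1.62, and the others gave log2 ratios of 1.02 and 0.63 in OR1 and 0.96 and 0.68 in OR2. ABCG4, a sterol exporter, read 22.7 in the parent, then 37.2 in OR1 and 30.9 in OR2, for ratios of 1.87 (technical SD 0.32 on the log2 scale) and 1.33 (SD 0.33). ABCA7, a phospholipid transporter, had 1.43 and 1.25.

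**Figure D2:**
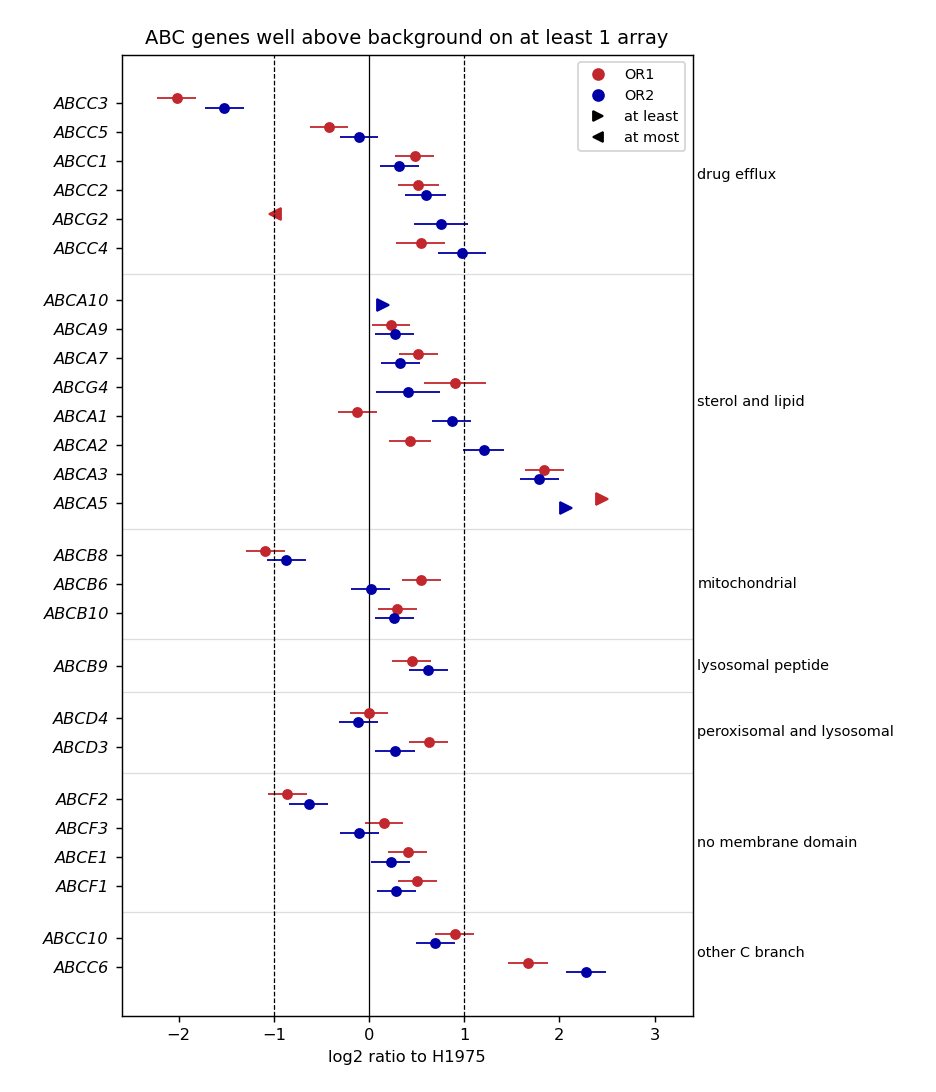
Log2 ratio to H1975 of 26 members well above background on at least 1 array, by group, for OR1 (red) and OR2 (blue), with bars of 1 technical SD from the spot error and triangles for bounds. Dashed lines mark log2 ratios of -1 and 1, and ABCC3 lies to the left of them at -2.02 and -1.52 while ABCA3, ABCA5 and ABCC6 lie to the right in both derivatives.

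Counted over the list, 3 of the 27 members with a ratio or bound in OR1 were at 2 or more (11.1%), against 9.17% of 21869 genes, and 2 (ABCB8 and ABCC3, 7.41%) were at 0.5 or less, against 9.58% of genes. In OR2, 4 of 28 were at 2 or more (14.3%), against 7.72% of 21689 genes, and 1 (ABCC3, 3.57%) at 0.5 or less, against 8.7%. With so few members, each share is within 2 genes of the background share, and nothing particular to the family is read from it. OR1 and OR2 were compared with the same H1975 array, so their ratios share its error.

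The median log2 ratio in OR1 was 0.03 over the 6 measured efflux members and 0.43 over 21 others, against 0.04 over all genes. In OR2 it was 0.46 over the 6 efflux members and 0.27 over 22 others, against -0.06. The median of the efflux members minus that of the others was -0.40 in OR1 and 0.19 in OR2. ABCG2 is 1 of the 6 efflux values behind each median, and with members measured on all 3 arrays, which leaves it out, the medians in OR1 were 0.48 for the efflux members and 0.43 for the others. In OR2 the same filter gave 0.32 and 0.27, and normexp gave 0.29 and 0.23, so the groups lay closer together in these settings. Other settings did not bring them closer in OR1. Quantile normalization gave 0.06 for the efflux members and 0.45 for the others, and no background filter gave -0.42 and 0.15, further apart. Of the members, 20 of 27 (74.1%) in OR1 and 22 of 28 (78.6%) in OR2 were above 0, where 52.3% and 46.4% of all genes were. Members are not replicates, and these are descriptions of 3 arrays. The share of members above 0 in OR1 depended on the scaling, and spike-in scaling moved members and all genes together. With arrays scaled on the spike-in probes, the median of all genes in OR1 moved by -0.62, from 0.04 to -0.58. That of the other members moved with it, from 0.43 to -0.17. ABCC1, ABCC2 and ABCC4 then had log2 ratios of -0.12, -0.08 and -0.05, below H1975. The share of all genes above 0 was not computed under this scaling.

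**Figure D3:**
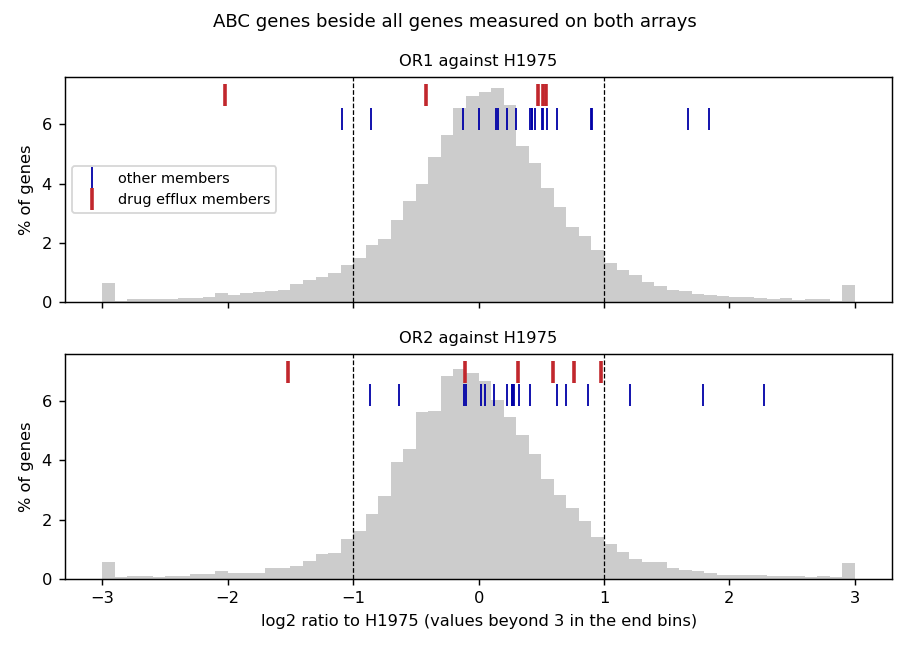
Share of all genes measured on both arrays by log2 ratio to H1975 (grey bars, in % of genes, 0.1 log2 a bar), with a tick for each of the drug efflux members (red) and other members (blue) that have a plain ratio. Dashed lines mark -1 and 1, and most ticks lie between them, with ABCC3 the red tick at -2.02 in OR1 and -1.52 in OR2.

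Several members had more than 1 probe, which gives a check within the array. Of 19 such members, 11 had at least 2 probes with plain ratios, and in each derivative 4 had probes on opposite sides of H1975. These were ABCB8, ABCB9, ABCC5 and ABCD3 in OR1, and ABCA1, ABCC5, ABCD3 and ABCE1 in OR2. The probes of ABCC6 and ABCC10 lay on 1 side, and those of ABCC3 also did but with log2 ratios of -2.02 and -0.29 in OR1. Probes of 1 gene can read different transcripts, and which transcript each read was not tested.

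**Figure D4:**
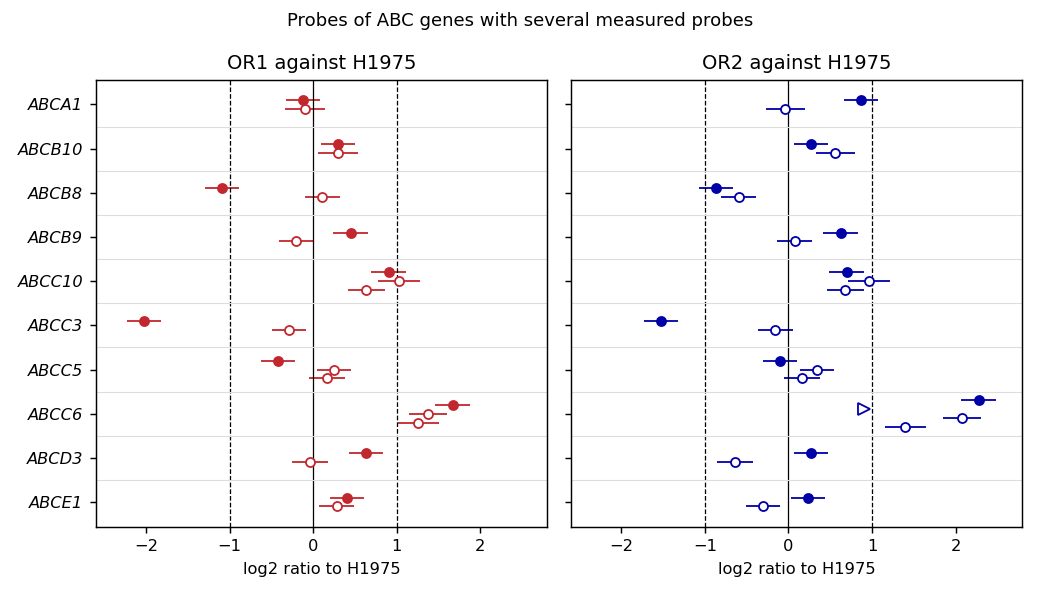
Log2 ratio to H1975 of every measured probe of 10 members with at least 2 plain ratios, in OR1 (left) and OR2 (right), with bars of 1 technical SD, filled circles for the brightest probe and a triangle for a bound. The 2 ABCC3 probes lie at -2.02 and -0.29 in OR1, and the ABCC6 probes all lie to the right of 0.

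The family members that carry other symbols were near H1975. The antigen peptide transporter subunits TAP1 (1.34 in OR1, 1.16 in OR2) and TAP2 (1.37 and 1.32) stayed within the limits, and the chloride channel CFTR was not measured in any line. Among 22 solute carriers that take up or exchange drugs, 13 could be compared in OR1, with 2 at 2 or more and 3 at 0.5 or less (9.17% and 9.58% of all genes). In OR2, 12 could be compared, with 1 at 2 or more and 2 at 0.5 or less (7.72% and 8.7% of all genes). These background shares also hold for the lists that follow, and with 8 to 13 genes a list nothing particular to a list is read from its counts. The prostaglandin carrier SLCO2A1 read 2098 for H1975, 48.7 for OR1 and 146 for OR2, for ratios of 0.03 and 0.07. The nucleoside carrier SLC28A1 had 0.49 and 0.44, SLCO3A1 0.49 and 0.93, and the folate carrier SLC19A1 2.51 and 1.53. The proton-coupled cation exporter SLC47A2, named after its values were seen, read 3.38 in H1975, below background, 26.1 in OR1 and 83.1 in OR2, at least 2.37-fold and at least 6.43-fold higher.

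Of 17 regulators known to act on ABC genes, 13 were measured, 0 passed either limit in OR1 and 2 were at 2 or more in OR2, where 7.72% of all genes were. These were the retinoid receptor RXRA (1.15 in OR1, 2.16 in OR2) and the aryl hydrocarbon receptor AHR (1.31 and 2.47). The oxysterol receptor NR1H3, a regulator of ABCA1, had 1.88 and 1.86, and the pregnane X receptor NR1I2, a regulator of ABCB1, was not measured in any line. The median log2 ratio of the measured regulators was 0.39 in OR1 and 0.36 in OR2. Not every one stood above H1975, and HIF1A, named as an exception to the limit of 4 genes a list, had 0.55 and 0.61. Of 8 partners of sterol efflux, APOE (0.35 in OR1, 1.16 in OR2) and NPC1 (0.40, 0.66) were at 0.5 or less in OR1, and NPC2 (0.56, 0.43) in OR2. Conjugating enzymes make the substrates of several C branch pumps, and their list also held genes of glutathione synthesis and a vault protein. Of its 13 measured genes, 2 were at 2 or more in each derivative, against 9.17% of all genes in OR1 and 7.72% in OR2. GSTM2 had 4.01 and 3.14, and GSTA4 read 112 (H1975), 562 (OR1) and 503 (OR2), for ratios of 5.73 and 4.38. GSTP1 had 0.78 in OR1 and 0.46 in OR2.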

How the data were processed

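The authors hybridized complementary RNA of H1975, OR1 and OR2 to Agilent single-colour human arrays, 1 array per line. The deposited scanner files hold spot intensity, corrected by the authors' software for background and spatial trend and not scaled between arrays. The other values used from the deposited files are spot flags and names. Feature Extraction is version 10.7.1.1 in the file header and 9.5.1.1 in the submitters' processing notes. A deposited table of normalized intensity served as an alternative, and its log2 values differed from quantile-normalized log2 intensity by a median of 0.0013. No column of the authors' own comparisons was used.

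Control spots and spots marked as outliers (45 to 61 an array, 0 of members) were left out, 0 spots were saturated, and 45.6 to 45.9% of 58200 probes were well above background. Log2 intensity was centred on each array's 75th percentile (157, 138 and 162 before log2). The brightest probe by mean over the arrays stood for a gene. Technical SDs came from the scanner software's error column and cover the spot measurement only. The 3 arrays limit precision. Members and lists were chosen with earlier results of these data known. Every efflux member and every member past a limit was named, others by group or where probes disagreed, and at most 4 genes of each related list, apart from the exceptions stated. Positions of probes are those of the files, on hg19. Of 45 member accessions 45 were found in RefSeq tables, 44 with the same symbol, and ABCF2's is listed there under ABCF2-H2BK1. Promoter windows were held for 35 members. Single values of 2 members are not reported here, though counts and medians include them. Scripts used Python 3.11.15, numpy 2.4.6, pandas 2.3.3, matplotlib 3.10.9, R 4.3.3 and limma 3.58.1 (normexp), and were tested on simulated data. Alternatives covered scaling, background correction, filters, the probe rule and the ratio limits.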

Additional observations from a re-analysis of the deposited data

Results flagged for a closer look

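ABCG2 moved in opposite directions in the derivatives, with a log2 ratio to H1975 of at most -0.99 in OR1 and of 0.76 in OR2. The difference was not tested, since each line had 1 array, and the value in OR1 is a bound from a probe not well above background there. The intensities were 25.7 in the parent, then 10.9 in OR1 and 44.7 in OR2, near the lower end of what the arrays measured. After normexp background correction the log2 ratio was at most -0.12 in OR1 and was 0.29 in OR2.

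ABCA11P, an ABC pseudogene whose symbol lies outside the list of members, gave a signal. It read 48.4 for H1975, 57.7 for OR1 and 84.8 for OR2, for log2 ratios of 0.44 and 0.77, and was well above background on all 3 arrays.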

How the results depend on the processing

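No paired analysis was possible because each line had 1 array. Of 600 values of single members under the alternatives, 545 moved by less than the technical SD and 55 by more, and of 96 counts and medians 74 stayed close and 22 moved. The median of the efflux members in OR1, 0.03 as reported, was -0.57 with spike-in scaling, 0.48 with members measured on all 3 arrays, -0.42 with no background filter and 0.32 with the median over probes. That of the others in OR1, 0.43, was -0.17 with spike-in scaling and 0.15 with no filter. Members at 2 or more numbered 3 in OR1, and 1 at a ratio of 4 and 6 at a ratio of 1.5. In OR2 there were 4, against 2 after normexp correction, 2 at a ratio of 4 and 10 at a ratio of 1.5. Members at the lower limit in OR1 numbered 2, against 3 (ABCG2 added) with quantile normalization, median scaling or the authors' table, 4 with no scaling, 5 with spike-in scaling, 1 after normexp, 6 with no filter, 1 with the median over probes, 1 at a ratio of 4 and 4 at a ratio of 1.5. In OR2 the count of 1 was 3 with no filter, 0 with the median over probes, 0 at a ratio of 4 and 3 at a ratio of 1.5. Causes were not tested, except that looser or stricter ratio limits change counts by construction. The median of all genes in OR1 moved by -0.62 with spike-in scaling, -0.19 with no scaling and -0.11 with median scaling. The log2 value of ABCA5 ran from at least 0.78 to 4.10 in OR1 and from at least 0.55 to 3.72 in OR2. The low ends were bounds after normexp, and the high ends were ratios with no background filter. ABCC3 ranged from -2.62 to -1.16 in OR1 and from -1.54 to -0.84 in OR2. Members near background, among them ABCG2 and ABCG4, have the least certain ratios.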
